A study of Homo sapiens with 42 samples.

Results

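The first step into S phase was examined by setting the S1 libraries of a chromatin contact experiment against its G1 libraries, separately for each of 3 primers. Of the 42 libraries in the series, 12 belong to these groups, with 2 S1 and 2 G1 libraries per primer. The cells were K562-FUCCI, a human chronic myeloid leukaemia line with the FUCCI cell-cycle reporter knocked in at the AAVS1 locus, and every group carried this reporter. Asynchronous cells were stained with Hoechst33342, a DNA dye, and sorted by flow cytometry into S1, the first by number of 6 S-phase fractions, and G1. After fixation with 1% PFA, chromatin was cut with DpnII and ligated inside the nuclei, and the ligation products were read by extension of a biotinylated primer at a chosen site.

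The site read by a primer is called its viewpoint. Per the labels, Proximal and Distal primers sit within a fountain, a jet of contacts that widens away from a point of origin, and the remaining primer is named Outside. S phase begins when replication origins fire, each giving a pair of forks that move apart, and regions of the genome replicate in a reproducible order. A contact assay of this type reports how often a viewpoint was ligated to each other part of the genome, so a change of the cell's state appears as a shift of contacts between near, far and other chromosomes. A cell type cannot be checked by marker genes in such data.

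Each library listed 16350 contacts as single hg19 positions, 1 to a line, the same number throughout, so sequencing depth cannot be read from it and is unknown. Each primer's most frequent position served as its viewpoint and lay on chromosome 9 at 111624875 for Proximal, 111525048 for Distal and 111110106 for Outside. Proximal and Distal were 99.8 kb apart, and Outside was 414.9 kb from Distal, toward lower coordinates. Contacts within 20 kb of the viewpoint were left out. The 12 libraries held between 10257 and 14031 contacts outside 20 kb, of which 6149 to 9759 lay within 2 Mb and are called local. The labels do not describe the 2 libraries of a group as separate cultures. The p-values therefore cover library-to-library spread alone, and this spread may be technical. The labels also do not say whether the 3 primers were applied to the same ligated DNA, so the primers may not be independent of each other.

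Many contacts repeated a position already listed in the same library, and the share of such repeats varied. Repeats made up 72.0% and 60.6% of Proximal S1 contacts, against 66.4% and 62.2% in G1. For Distal they were 45.5% and 39.2% in S1, against 38.6% and 36.2% in G1, and for Outside 60.9% and 49.7% in S1, against 49.4% and 46.6% in G1. S1 replicate 1 had the highest share from every viewpoint. Over the 12 libraries the mean difference was 4.76 points, with an exact two-sided permutation p of 0.1204 when the labels were exchanged within primers. Calls of the far share, of bins and of other chromosomes with each position counted once are given below. For distance classes, the number of other settings in which a call held is given, and these settings include that count.

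The broadest difference was a loss of far contacts on chromosome 9, seen from all 3 viewpoints. Contacts beyond 2 Mb made up 19.2% and 18.5% of the Proximal contacts outside 20 kb in S1, against 26.3% and 25.8% in G1. From the Distal viewpoint they made up 18.2% and 17.7% in S1, against 24.3% and 25.3% in G1. From Outside they made up 15.9% and 14.9% in S1, against 22.5% and 21.2% in G1. Every S1 library lay below both G1 libraries of its primer, with gaps far wider than those between replicates.

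The mean share was 18.8% ± 0.49 in S1 and 26.0% ± 0.35 in G1 for Proximal (SD, n = 2 each), a log2 change of -0.47 with a limma adjusted p of 2.69e-05. For Distal it was 17.9% ± 0.39 in S1 and 24.8% ± 0.73 in G1 (SD, n = 2 each), a log2 change of -0.47 with a limma adjusted p of 3.31e-05. For Outside it was 15.4% ± 0.69 in S1 and 21.8% ± 0.88 in G1 (SD, n = 2 each), a log2 change of -0.51 with a limma adjusted p of 1.63e-07. The 3 viewpoints thus lost a similar proportion. Averaged over primers the far share was 6.83 points lower in S1, and the exact two-sided permutation p of 0.009259 is the smallest that the 216 arrangements within primers can give. Within 1 primer, 2 libraries against 2 cannot give an exact p below 0.3333. The 216 arrangements take the primers as independent of each other. If the primers read the same ligated DNA, the limit of 0.3333 would hold for the joint test too. With each position counted once the log2 changes were -0.38, -0.42 and -0.46 for Proximal, Distal and Outside, all still called, which here means an adjusted p below 0.05.

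The loss was uneven over distance. Between 10 and 20 Mb the S1 share was 0.563 of the G1 share for Proximal, 0.565 for Distal and 0.577 for Outside. Between 20 and 40 Mb the ratios were 0.538, 0.542 and 0.647 in the same order. S1 and G1 libraries did not overlap at either distance. Nearer to the viewpoint, at 2 to 5 Mb, the ratios were closer to 1, at 0.936 for Proximal, 0.875 for Distal and 0.781 for Outside. In that range the Proximal libraries overlapped, with 8.60% and 7.69% in S1 against 8.81% and 8.59% in G1. Beyond 40 Mb the ratios were 0.851, 0.641 and 0.764. These finer distances were not tested and are given as values.

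**Figure D1:**
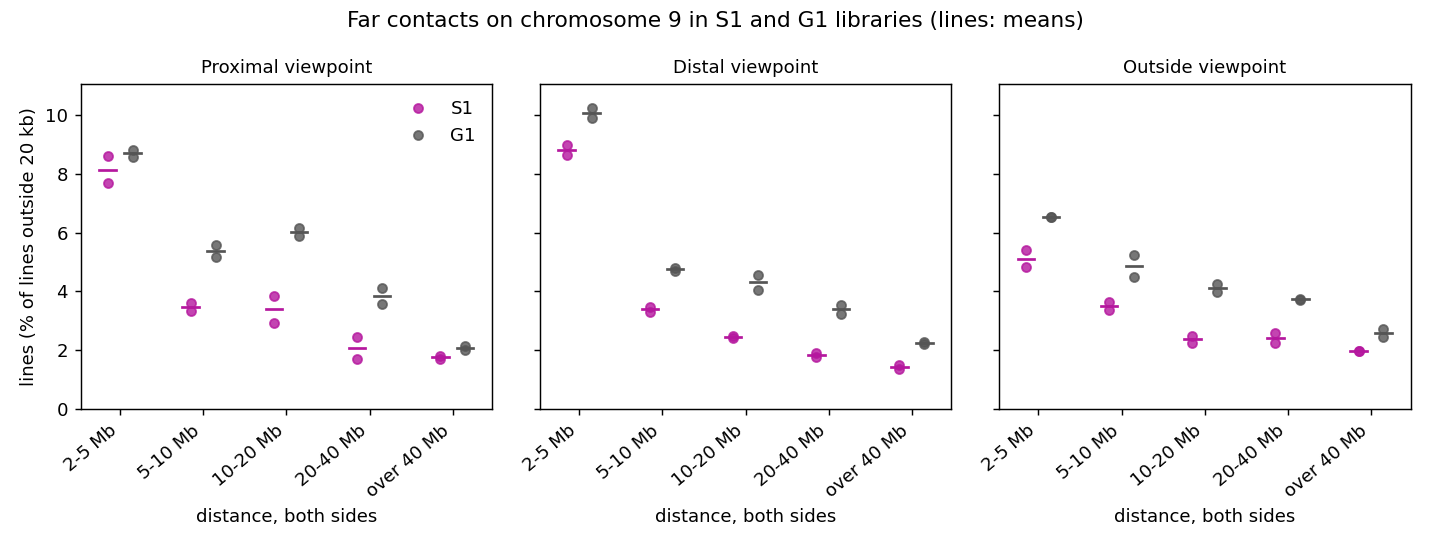
Share of contacts on chromosome 9 beyond 2 Mb, in percent of contacts outside 20 kb (y axis, from 0), by distance from the viewpoint on both sides (x axis), with 1 point per library and a line at each mean, S1 left of G1. At 10 to 20 Mb every S1 point lies below both G1 points, at 0.563, 0.565 and 0.577 of the G1 mean from the 3 viewpoints, while at 2 to 5 Mb the Proximal points overlap.

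A stretch of 18.15 Mb without a contact in any library, from 47314798 to 65468801, separated the far positions below it from the rest. Contacts below that stretch made up 1.40% and 1.20% of the Proximal total in S1, against 1.35% and 1.42% in G1, from 144 and 132 contacts in S1 and 142 and 151 in G1. These libraries overlapped. For Distal the same region held 1.13% and 1.01% in S1, against 1.70% and 1.61% in G1, without overlap. For Outside it held 1.37% and 1.35% in S1, against 2.02% and 1.77% in G1, also without overlap. The ratios of S1 over G1 were 0.939 for Proximal, 0.645 for Distal and 0.716 for Outside, and the difference between viewpoints was not tested.

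Distance classes on each side of the viewpoint showed where the share went. Of 45 classes (15 per primer), 23 differed between S1 and G1 in limma after Benjamini-Hochberg adjustment over all 45, which is 51.1%. Among them 11 were higher in S1 and 12 lower. All shares are fractions of one total, so a loss in one class raises the others even where their contacts did not change. Proximal had 9 called classes (4 higher, 5 lower), Distal 7 (4 higher, 3 lower) and Outside 7 (3 higher, 4 lower). Leaving out any 1 library gave between 17 and 24 called classes.

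On the log2 scale the strongest loss from each viewpoint was beyond 10 Mb on the higher-coordinate side. Proximal contacts there made up 2.68% and 2.13% in S1, against 4.40% and 4.64% in G1 (log2 change -0.92, SE 0.14, limma adjusted p 0.000191). For Distal they made up 1.73% and 1.59% in S1, against 3.01% and 3.36% in G1 (log2 change -0.94, SE 0.10, limma adjusted p 2.17e-05). For Outside they made up 1.58% and 1.77% in S1, against 3.28% and 2.73% in G1 (log2 change -0.84, SE 0.09, limma adjusted p 5.57e-13). As fitted ratios of S1 over G1 these were 0.529 from Proximal, 0.521 from Distal and 0.558 from Outside. The very small Outside p rests on a spread that limma shared almost fully among the Outside classes, and it was 0.00033 with a replicate block.

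Beyond 10 Mb on the lower side the log2 changes were -0.62 for Proximal, -0.74 for Distal and -0.55 for Outside, all called. In share, averaged over primers, contacts beyond 10 Mb fell by 2.55 points on the lower side and fell by 1.66 points on the higher side, the opposite order to the log2 changes. From 2 to 10 Mb the losses were smaller on the log2 scale. On the higher side they were -0.40 for Proximal, -0.65 for Distal and -0.49 for Outside, all called, with the Proximal call lost in 2 of the 8 other settings (each position once, another scale, a replicate block, S1 and G1 alone, or 1 library left out). On the lower side they were -0.18 for Proximal (called), -0.10 for Distal (limma adjusted p 0.172) and -0.34 for Outside (called). The Proximal call on that side held in 2 of the 8 other settings. It was among those lost with each position counted once (limma adjusted p 0.192).

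**Figure D2:**
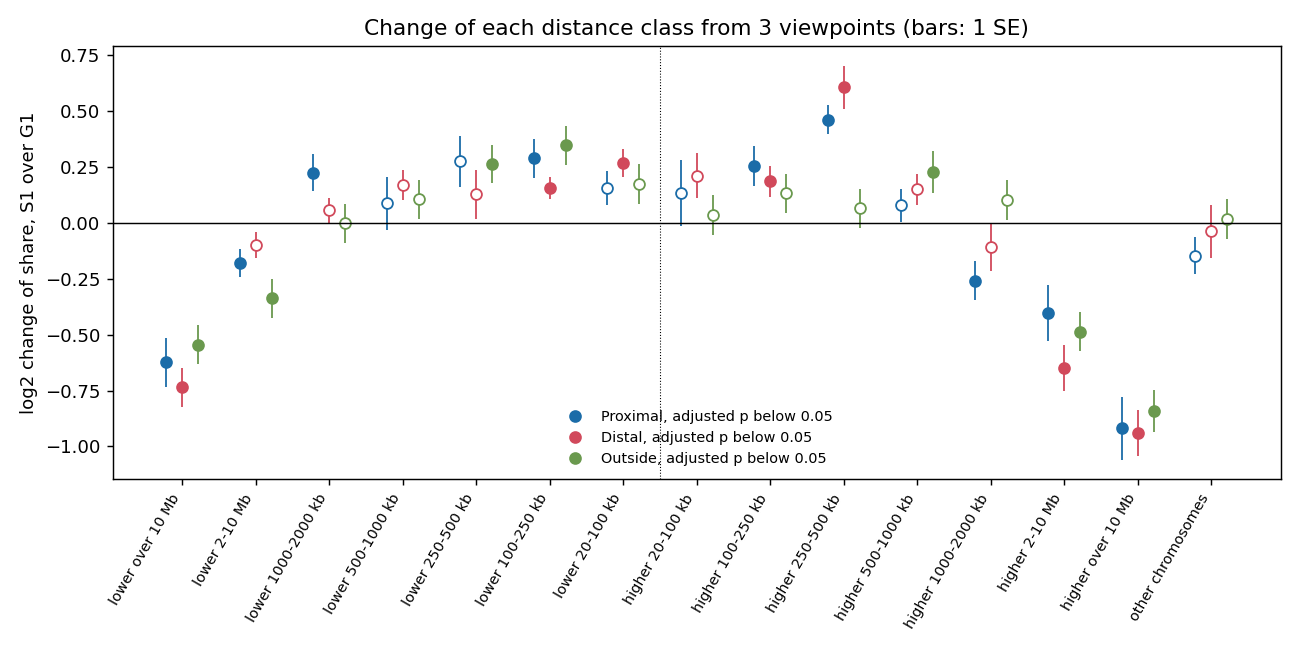
Change of each distance class in S1 over G1 (y axis, log2 of the share of contacts outside 20 kb) against the class (x axis, from far on the lower-coordinate side through the viewpoint, dotted line, to far on the higher side and other chromosomes), with bars of 1 SE. Filled points have a limma adjusted p below 0.05. The far classes lie below 0 on both sides in all 3 viewpoints, and the 250 to 500 kb class on the higher side stands highest for Proximal (0.46) and Distal (0.61) but not for Outside (0.06).

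Among the nearer classes, the span from 250 to 500 kb on the higher-coordinate side had the highest log2 gain from the 2 viewpoints within the fountain. Proximal contacts in this class made up 9.96% and 10.3% in S1, against 7.39% and 7.30% in G1 (log2 change 0.46, SE 0.06, limma adjusted p 9.19e-05). Distal contacts made up 2.95% and 2.99% in S1, against 1.98% and 1.93% in G1 (log2 change 0.61, SE 0.10, limma adjusted p 0.000326). Both calls held in all 9 other settings tried, which here include local contacts as the total. Outside contacts at the same distance made up 6.34% and 6.45% in S1, against 6.09% and 6.14% in G1 (log2 change 0.06, SE 0.09, limma adjusted p 0.517).

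The Outside libraries did not overlap in this class either, but their gap was small. The difference itself was tested in 1 fit of all 42 libraries. The Distal change exceeded the Outside change by 0.54 on the log2 scale (SE 0.12, 95% interval 0.30 to 0.79, limma adjusted p 0.00378). The Proximal change exceeded it by 0.40 (95% interval 0.15 to 0.64, limma adjusted p 0.0544) and so missed the threshold. Of 45 such differences between viewpoints, 1 was called, which is 2.22%. Equal distances from these viewpoints are different stretches of the genome.

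For the far classes limma called 0 of 12 differences between viewpoints, with 1 at an unadjusted p below 0.05, and the intervals were wide. Beyond 10 Mb on the higher side, Proximal minus Distal was 0.02 (95% interval -0.34 to 0.39), Proximal minus Outside -0.08 (95% interval -0.44 to 0.29) and Distal minus Outside -0.10 (95% interval -0.46 to 0.26). Differences between viewpoints of any size within these intervals remain compatible with these libraries, and the intervals are not adjusted for the number of differences tested.

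Near the viewpoints, but outside 20 kb, several S1 shares were slightly higher. Contacts within 20 kb did not share this: their part of all contacts was 0.81 points lower in S1, averaged over primers (exact two-sided permutation p 0.333). In the class from 100 to 250 kb on the lower side the log2 change was 0.29 for Proximal, 0.16 for Distal and 0.35 for Outside, all called. On the higher side of the same class it was 0.26 for Proximal and 0.19 for Distal, both called, and 0.13 for Outside (limma adjusted p 0.191). From 20 to 100 kb on the lower side the Distal change of 0.27 was called, while Proximal had 0.16 and Outside 0.17. On the higher side of that class no viewpoint was called, with 0.13 for Proximal, 0.21 for Distal and 0.04 for Outside. From 250 to 500 kb on the lower side Outside had a called change of 0.26, and Proximal had 0.28 (limma adjusted p 0.0590). Outside was also called at 500 to 1000 kb on the higher side, with 0.23. Calls of the nearer classes other than 250 to 500 kb on the higher side held in 2 to 8 of the 9 other settings.

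Taken over the 3 primers in the exact permutation test, 10 of 15 classes passed after adjustment, 6 higher and 4 lower. Those with the smallest adjusted p that this test gave, 0.01736, included all 4 far classes and, among the nearer ones, 20 to 100 kb and 100 to 250 kb on the lower side and 100 to 250 kb and 250 to 500 kb on the higher side. The joint test takes the primers as independent, which the labels do not settle. If they shared ligated DNA, it could not call any class.

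When local contacts alone were taken as the total, most of these nearer gains were no longer called. Of the 30 classes within 2 Mb, 3 passed, against 12 with all contacts outside 20 kb as the total. The 3 were the 250 to 500 kb class on the higher side for Proximal (log2 change 0.26, limma adjusted p 0.0202) and Distal (0.45, limma adjusted p 0.0113), and the 1 to 2 Mb class on the higher side for Proximal (-0.46, limma adjusted p 0.00995). The Proximal 1 to 2 Mb class made up 2.58% and 2.64% of contacts outside 20 kb in S1, against 3.31% and 2.95% in G1. The gain at 250 to 500 kb within the fountain was thus measured both against all contacts and against the local ones.

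**Figure D3:**
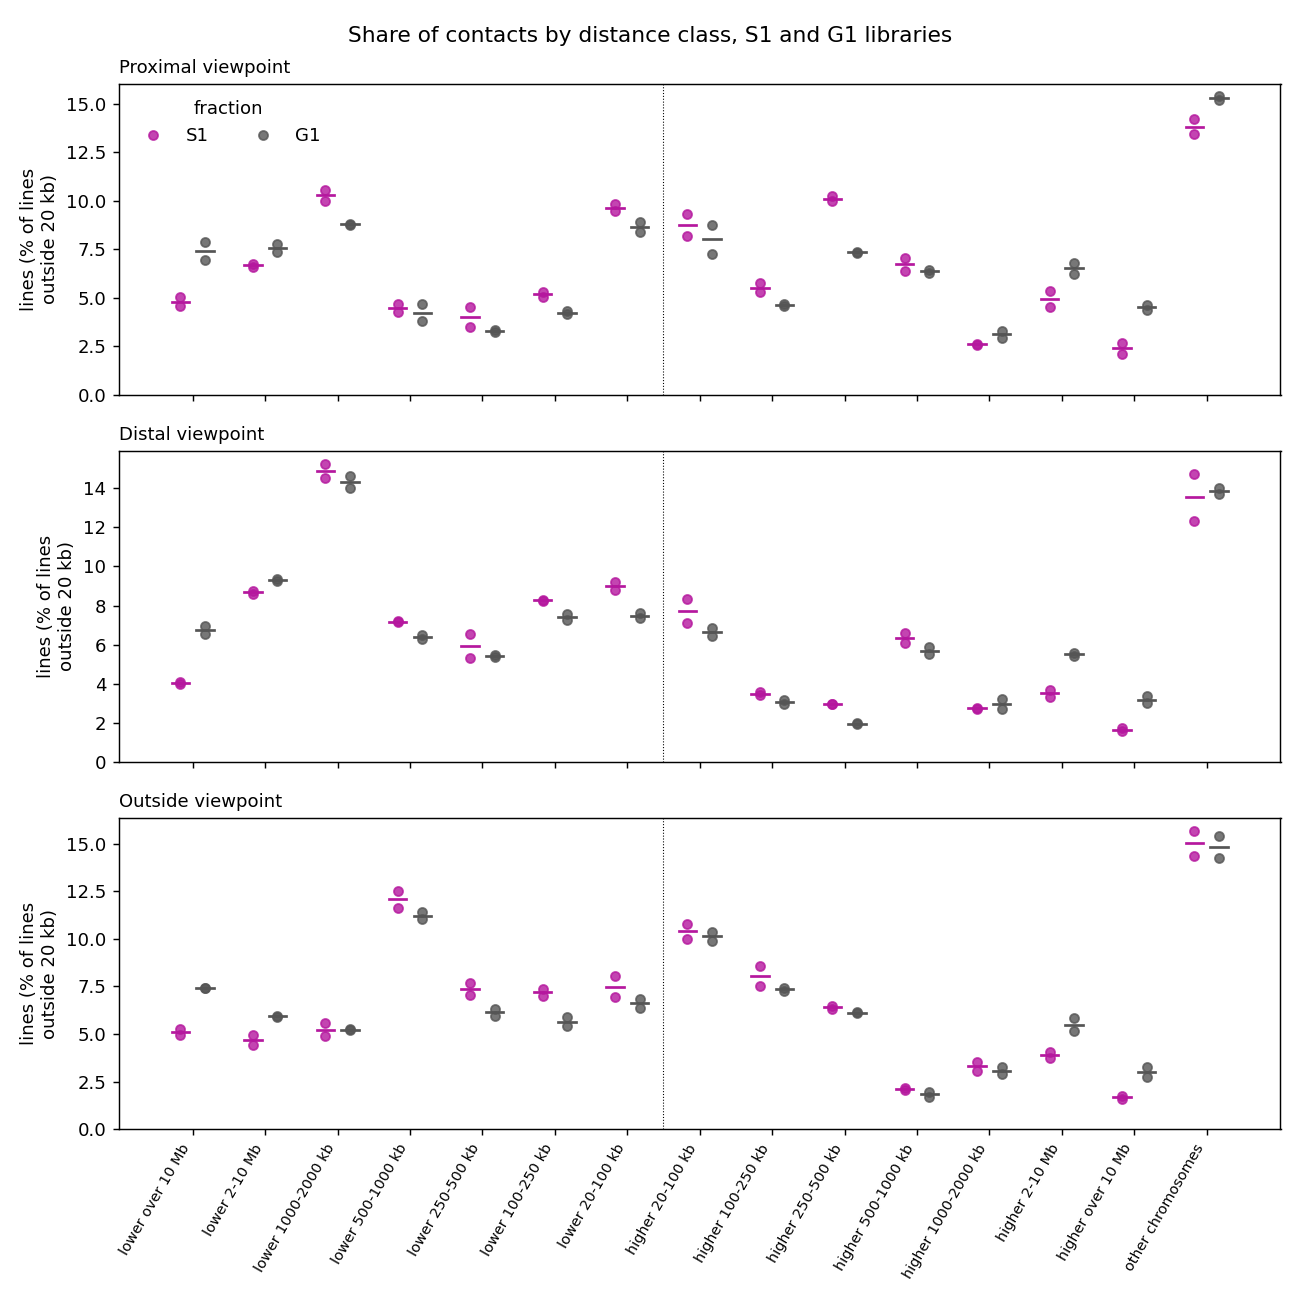
Share of each distance class in percent of contacts outside 20 kb (y axis, from 0) for each library, S1 left of G1, with a line at each mean, in 1 panel per viewpoint. Classes run from far on the lower-coordinate side to far on the higher side, with other chromosomes at the right. The Proximal S1 libraries stand at 9.96% and 10.3% in the 250 to 500 kb class on the higher side, clear of both G1 libraries.

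The share going to other chromosomes was not called from any viewpoint. They received 14.2% and 13.4% of Proximal contacts in S1, against 15.4% and 15.2% in G1 (log2 change -0.15, limma adjusted p 0.146). For Distal the shares were 14.7% and 12.3% in S1, against 13.7% and 14.01% in G1, and for Outside 15.7% and 14.4% in S1, against 14.2% and 15.4% in G1. The Distal and Outside libraries overlapped, and over all 12 libraries the exact two-sided permutation adjusted p was 0.333. The median distance of chromosome 9 contacts outside 20 kb was 192.9 kb shorter in S1, averaged over primers (exact two-sided permutation p 0.009259). For Proximal it was 505 and 488 kb in S1, against 742 and 662 kb in G1. For Distal it was 691 and 638 kb against 910 and 972 kb, and for Outside 445 and 404 kb against 544 and 497 kb. This median includes the contacts beyond 2 Mb, so it is not separate from the far loss.

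Taken 1 by 1, 1 of 66 pairings of a viewpoint with another chromosome was called, which is 1.52%. It was chromosome 22 from the Outside viewpoint, with 0.064% and 0.145% in S1, against 0.234% and 0.276% in G1 (log2 change -0.96, limma adjusted p 0.0195). These are shares of 13702 to 14031 contacts, so they rest on few contacts per library, and the 2 S1 libraries lay far apart. With each position counted once, and with contacts to other chromosomes as the total, no pairing was called.

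Within 2 Mb, contacts were also counted in 50 kb bins on a fixed grid and scaled to the local total, so that the far loss does not enter. Bins with a mean of at least 10 contacts per library were tested, which left 70 of 81 for Proximal, 73 for Distal and 79 for Outside. In limma 1 Proximal bin was called (1.43%), 3 Distal bins (4.11%) and 0 Outside bins (0%). At an unadjusted p below 0.05 there were 9 Proximal, 11 Distal and 8 Outside bins, and a quasi-Poisson model called 0 bins from each viewpoint after adjustment. Both S1 libraries lay on the same side of both G1 libraries in 30 Proximal, 32 Distal and 30 Outside bins. With 2 libraries against 2, random order alone would separate a share of 0.3333 of the tested bins in this way. The counts were not tested against that share, so they are not a measure of how many bins changed. Outside, with 0 called bins, had the same count as Proximal.

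All 4 calls were higher in S1, and they fell in 3 neighbouring bins on the higher-coordinate side. The bin at chr9:111950001-112000000 was called from both viewpoints within the fountain. From Proximal, 350.1 kb away, it held 386 and 307 per 10000 local contacts in S1, against 224 and 225 in G1 (log2 change 0.61, SE 0.14, limma adjusted p 0.0120). From Distal, 450.0 kb away, it held 129 and 133 in S1, against 90.5 and 78.2 in G1 (log2 change 0.63, SE 0.16, limma adjusted p 0.0200). From Outside it held 26.0 and 31.8 in S1, against 40.4 and 26.4 in G1, and these libraries overlapped (log2 change -0.18, limma adjusted p 0.941).

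The bin below it, chr9:111900001-111950000, differed by viewpoint in its values. From Distal it held 105 and 80.7 per 10000 local contacts in S1, against 60.7 and 60.2 in G1 (log2 change 0.60, limma adjusted p 0.0374). From Proximal it held 253 and 291 in S1, against 288 and 311 in G1, where the libraries overlapped (log2 change -0.14, limma adjusted p 0.681). The change from Proximal minus that from Distal was -0.74 (95% interval -1.20 to -0.28), with a limma adjusted p of 0.167 over 70 shared bins.

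The bin above, chr9:112000001-112050000, held 161 and 154 per 10000 local contacts from Distal in S1, against 117 and 110 in G1 (log2 change 0.47, limma adjusted p 0.0200). From Proximal it held 322 and 380 in S1, against 259 and 264 in G1 (log2 change 0.42, limma adjusted p 0.0694). From Outside it held 48.9 and 36.9 in S1, against 24.2 and 34.4 in G1 (log2 change 0.54, limma adjusted p 0.422). Both S1 libraries were above both G1 libraries from all 3 viewpoints in this bin.

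These calls depended on the libraries and the model. The Proximal call ended without S1 replicate 1, without G1 replicate 1 and without G1 replicate 2, and 4 bins (1 higher, 3 lower) were called without S1 replicate 2. The Distal count was 0 without S1 replicate 1 or G1 replicate 2, 1 without S1 replicate 2 and 2 without G1 replicate 1. The log2 changes of the 4 called bins ranged from 0.41 to 0.81 over the 16 other settings in which each was recomputed, with no change of sign. Scaling to all contacts outside 20 kb gave 4 Proximal, 6 Distal and 1 Outside calls, all higher, and limma without a trend gave 0 from each viewpoint. With each position counted once there were 1, 3 and 1 calls.

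**Figure D4:**
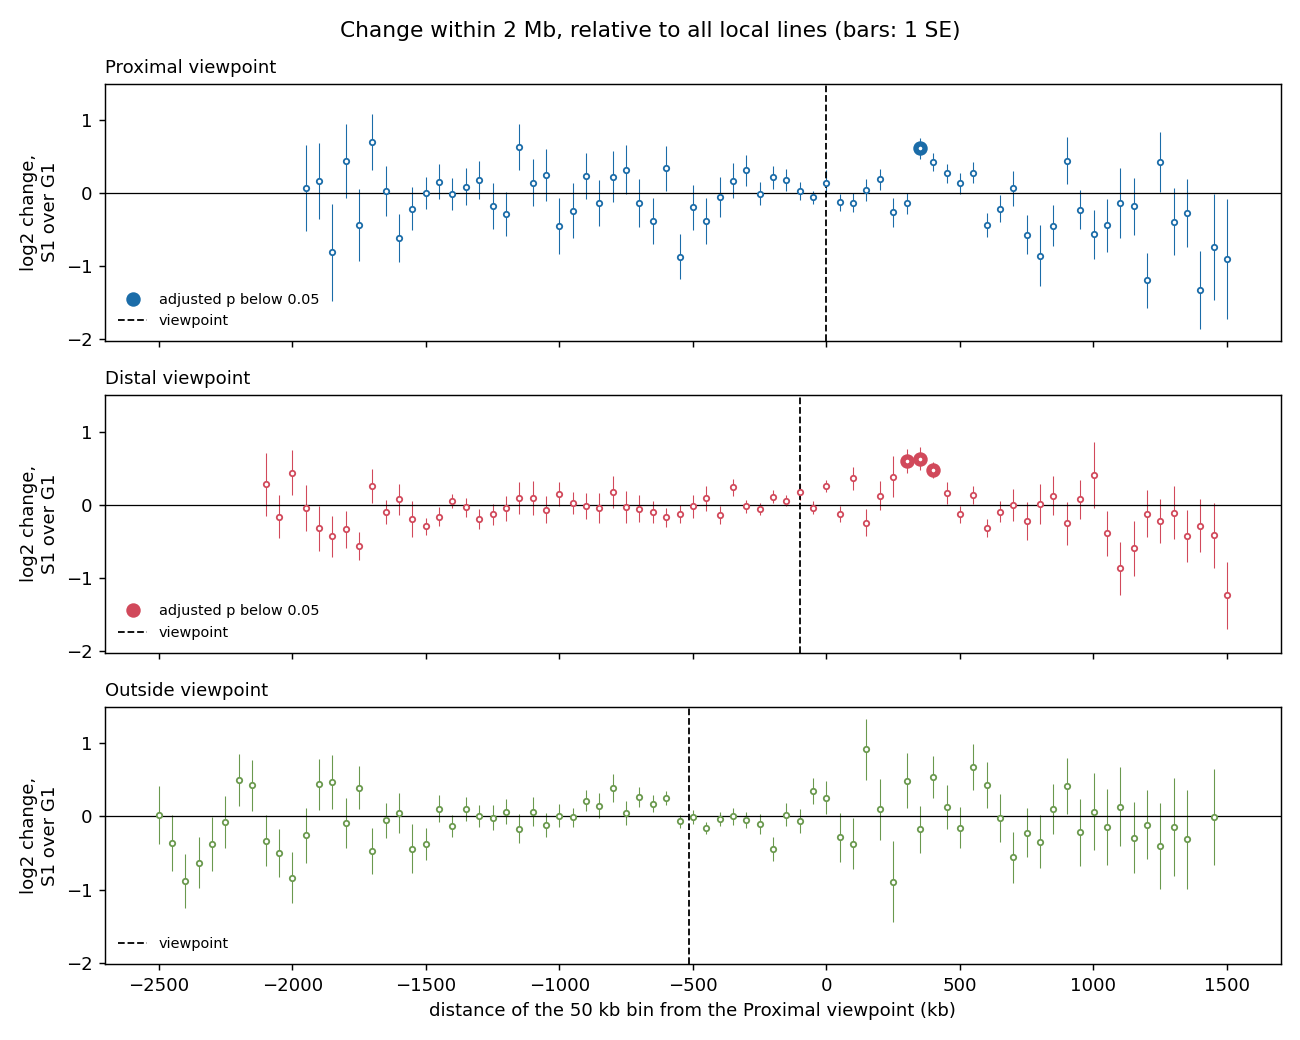
Log2 change of S1 over G1 per 50 kb bin (y axis, relative to all local contacts, bars of 1 SE) against the distance of the bin from the Proximal viewpoint in kb (x axis), in 1 panel per viewpoint, with the panel's own viewpoint as a dashed line. Large filled points are the called bins, 1 for Proximal and 3 for Distal, which lie side by side to the right of both viewpoints, and no Outside bin is called.

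Whether the viewpoints differed bin by bin was tested on the difference of their changes. No bin passed in limma for Proximal minus Distal (0% of 70), Proximal minus Outside (0% of 68) or Distal minus Outside (0% of 71), nor in the quasi-Poisson model. At an unadjusted p below 0.05 there were 4, 8 and 10 such bins in limma. For chr9:111950001-112000000, Proximal exceeded Outside by 0.79 (95% interval 0.14 to 1.45, unadjusted p 0.0190 in limma) and Distal exceeded it by 0.81 (95% interval 0.17 to 1.44, unadjusted p 0.0137 in limma). With each position counted once, 1 bin passed for each of these pairs with Outside. As a description, the changes of 70 shared genome bins had a Pearson r of 0.35 between Proximal and Distal. It was 0.05 between Proximal and Outside over 68 bins and -0.13 between Distal and Outside over 71 bins. With bins matched by distance from their own viewpoint, r was 0.30 for Proximal and Distal (70 bins), 0.15 for Proximal and Outside (70 bins) and 0.06 for Distal and Outside (73 bins). Over the 34 to 36 matched bins with the most G1 contacts, r for Proximal and Distal was 0.31 by genome bin and 0.48 by distance. For Proximal and Outside these were 0.10 and 0.31, and for Distal and Outside -0.05 and -0.06. Neighbouring bins share their library and most hold few contacts, so these are weak relations.

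The remaining extremes did not pass the test. The lowest differences per 10000 local contacts were at chr9:111650001-111700000 for Proximal, with 761 and 934 in S1 against 855 and 989 in G1. For Distal they were at chr9:110100001-110150000, with 214 and 176 in S1 against 237 and 241 in G1. For Outside they were at chr9:111150001-111200000, with 715 and 800 in S1 against 824 and 863 in G1. The Proximal libraries overlapped, while the others did not. Over the 3 lowest bins of each viewpoint, the limma adjusted p ranged from 0.0951 to 0.713.

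Outside had its highest difference at chr9:111000001-111050000, 85.1 kb below its viewpoint, with 591 and 636 per 10000 local contacts in S1 against 522 and 508 in G1 (log2 change 0.25, limma adjusted p 0.335). The bin holding the Proximal viewpoint, read from Distal, held 448 and 464 in S1 against 405 and 360 in G1 (log2 change 0.26, limma adjusted p 0.0951). Read the other way, the bin holding the Distal viewpoint held 465 and 483 in S1 against 457 and 473 in G1 from Proximal, and these libraries overlapped. The bin holding the Outside viewpoint held 104 and 48.1 in S1 against 89.4 and 73.5 in G1 from Proximal, and 140 and 205 in S1 against 177 and 167 in G1 from Distal, with overlap in both.

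The 3 neighbouring bins were then followed as 1 stretch, chr9:111900001-112050000, chosen on these values and so given without a test. From Proximal it held 961 and 979 per 10000 local contacts in S1, against 771 and 800 in G1, a ratio of 1.23. From Distal it held 394 and 368 in S1, against 268 and 248 in G1, a ratio of 1.48. From Outside it held 112 and 89.1 in S1, against 89.9 and 75.7 in G1, a ratio of 1.22 with overlapping libraries. Its contacts fell on 240 and 348 distinct positions in S1 against 202 and 243 in G1 for Proximal, where the libraries overlapped. For Distal they fell on 227 and 265 in S1 against 166 and 167 in G1, without overlap. In windows of 10 kb, both S1 libraries exceeded both G1 libraries in 6 of 15 windows for Proximal, 9 of 15 for Distal and 1 of 15 for Outside. Both S1 libraries lay below both G1 libraries in 2 Proximal windows, 0 Distal windows and 1 Outside window. Random order of 2 libraries against 2 gives such separation, in either direction, in a share of 0.3333 of windows. The stretch was chosen for higher S1 values, so the window counts add no separate support. No such count was made over windows elsewhere.

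The later S fractions show how far each change had gone by S1. They are measured against the same G1 libraries, so they are given side by side and not tested against each other. Contacts beyond 2 Mb averaged 26.0% in G1, 18.8% in S1, 16.1% in S2 and 12.4% in S4 for Proximal, where S4 was the fraction farthest from G1. By S1 the far share had covered 52.9% of the way from G1 to S4 for Proximal, 50.0% for Distal and 63.4% for Outside. In the stretch of 3 bins the means for Proximal were 786 per 10000 local contacts in G1, 970 in S1, 1137 in S2 and 1352 in S3, so that S1 had covered 32.6% of the way to S3. From Distal it had covered 41.3% of the way to S4. From Outside the 2 S1 libraries stood at 39.6% and 8.51% of the way to S4, too far apart for their mean to be given weight. The stretch was chosen for its S1 values above G1, which can raise its figures. It also has another total than the far share, and each end point was the fraction farthest from G1. The order of the changes therefore cannot be read from these figures.

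In the higher-side class from 500 to 1000 kb the part of the way covered by S1 was small. Proximal contacts there averaged 6.36% in G1, 6.72% in S1 and 12.2% in S4, so S1 had covered 6.16% of that way. The 2 libraries differed widely, at 0.74% and 11.6% for Proximal and at 15.2% and 6.34% for Distal, whose mean was 10.8%. At 250 to 500 kb the figures were 31.2% of the way to S3 for Proximal and 34.4% of the way to S4 for Distal. From 1 to 2 Mb on the lower side the Proximal mean was above G1 in S1 and below it in S4, with 8.80% in G1, 10.3% in S1 and 5.96% in S4. The higher S1 share there was called (log2 change 0.22, limma adjusted p 0.0377), but the call held in 2 of the 9 other settings.

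**Figure D5:**
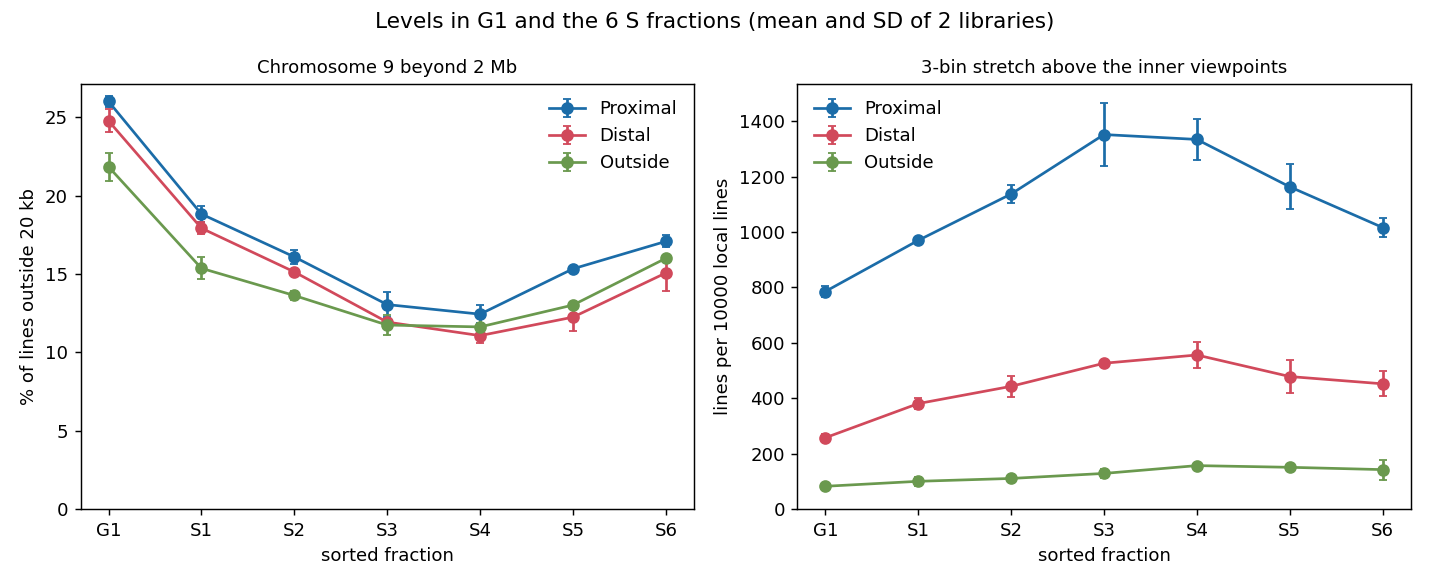
Mean and SD of 2 libraries in G1 and in the 6 S fractions in order (x axis), for the share of contacts on chromosome 9 beyond 2 Mb (left, percent of contacts outside 20 kb) and for the 3-bin stretch (right, contacts per 10000 local contacts), with both y axes from 0. The far share falls most between G1 and S1 in all 3 viewpoints and is lowest in S4. The stretch also rises most between G1 and S1 for Distal (258 to 381), but not for Proximal or Outside. It is highest in S3 for Proximal (1352, beside 1334 in S4) and in S4 for Distal (556).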

How the data were processed

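Contacts of 3 viewpoints on chromosome 9 were analysed in S1 and G1 K562-FUCCI libraries. The deposited files list 1 genome position per line (hg19, per the submitters' processing notes), with no value column. Those notes name cutadapt and bedtools. The aligner, the use of the molecular barcodes and the step that made every library equal in length are not stated in the sources used here. Repeated positions were kept, and an alternative counted each once.

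Lines were counted in 50 kb bins and 15 distance classes. Bins were scaled to the local total, and log2 was taken after adding the smallest scaled value above 0 (0.89 to 0.94 lines). Tests used limma 3.58.1 in R 4.3.3 (lmFit and eBayes, with a trend for bins) on all 14 libraries of a primer, with S1 minus G1 as the contrast, Benjamini-Hochberg adjustment and a threshold of 0.05. Differences between primers were tested as interactions. Exact permutation exchanged labels within primers, with the primers taken as independent of each other. Bins were named by a rule: every called bin, the 3 highest and 3 lowest differences per primer, and bins holding other viewpoints. The members and lists were chosen with earlier results of these data known. The bin test was also run on simulated data, and the outcome is not reported here. Counting and permutation ran in Python 3.11.15 with pandas 2.3.3 and numpy 2.4.6, and plots in matplotlib 3.10.9. No hg19 annotation was used, so bins carry no gene names. Intervals cover the spread between libraries only.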

Additional observations from a re-analysis of the deposited data

Results flagged for a closer look

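In the higher-side class from 250 to 500 kb, the S1 change differed between 2 viewpoints in a test of the difference itself. The Distal change exceeded the Outside change by a log2 value of 0.54 (adjusted p 0.00378 in limma over 45 differences). The Distal share was 2.97% in S1 and 1.95% in G1, and the Outside share was 6.39% in S1 and 6.11% in G1 (means, n = 2 each). The class covers different stretches of the genome from the 2 viewpoints, and the part that position plays in the difference was not tested.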

How the results depend on the processing

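The far loss kept its sign and its call from every viewpoint under each alternative, with log2 changes from -0.38 to -0.55; for it, the replicate block and the fit of S1 and G1 alone were chosen after seeing the data. The called classes numbered 17 to 28 of 45. Of the classes within 2 Mb, 12 were called, and 3 with local contacts as the total. Bin counts changed most. Scaling to all contacts outside 20 kb gave 4 Proximal, 6 Distal and 1 Outside bins, and moved the median log2 change of all bins to 0.14, 0.11 and 0.11. Without a trend, with S1 and G1 alone, and with a quasi-Poisson model, 0 bins were called for Proximal and 0 for Distal. Bins of 25 kb and of 100 kb each gave 1 for Distal. Leaving out 1 library gave 0 to 4 for Proximal and 0 to 2 for Distal. Counting each position once gave 1 Outside bin, 1 bin differing between Proximal and Outside, and 1 between Distal and Outside; it left 0 other chromosomes called, as did contacts to other chromosomes as the total. With a replicate block, 2 Proximal bins were called and the Distal count stayed at 3. The labels do not say what a replicate number marks. Bin deviations of same-numbered libraries had median correlations of 0.02, -0.01 and 0.04 over pairs of fractions. Some other measures leaned with the replicate number, and replicate 1 had more repeats in 6 of 7 fractions from each viewpoint. Its median distance was longer in 6 of 7 from Proximal, 4 of 7 from Distal and 7 of 7 from Outside. In the 3-bin stretch, chosen on these data, replicate 1 had more contacts in 5, 7 and 6 of 7, in that order. Its share of local contacts on the higher side was the higher in 2, 5 and 2 of 7. The cause of these shifts was not tested. Replicates of a group also differed over 50 kb bins, where counting noise alone would give a chi-square per degree of freedom near 1. It was 3.06 in S1 and 2.59 in G1 for Proximal, 1.74 and 1.26 for Distal, and 2.37 and 1.57 for Outside. Few contacts per bin and this spread between libraries limit what 2 libraries a group can show.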
